A study of Homo sapiens with 4 samples.

Results

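Deep shared peaks are strong FOXK1 peaks of HK-2 cells that lie well inside a protein-coding gene, away from its ends, in both conditions of the study. A peak of the untreated list was taken when its pileup height was 20 or more and when a peak of height 20 or more in the TGF-β1 list overlapped it by at least 1 bp. Its midpoint had to lie inside a RefSeq protein-coding gene, called its host, and more than 5 kb from every annotated end of a protein-coding gene. On chromosomes 1 to 22 and X, 1371 peaks met the rule, of 381673 peaks in the untreated list and of 4189 strong shared peaks. The pileup height is the authors' value for the peak, a whole number, so the peaks were selected on measured heights in both lists, and heights are described here and not tested.

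HK-2 is an immortalised line of human proximal tubular epithelial cells. Cultures received no cytokine or TGF-β1 at 10 ng/ml over 24 h, and chromatin was immunoprecipitated with an antibody to FOXK1. There was 1 FOXK1 library with 1 input, DNA not immunoprecipitated, for either condition, and all 4 libraries came from the same line. With 1 FOXK1 library per condition and unknown depth, the 2 lists compare libraries and not conditions, and no p-value is given. The untreated list is also called the control list below.

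FOXK1 is a forkhead transcription factor. Forkhead proteins bind DNA through a winged-helix domain that recognises a short core, TGTTTAC or its reverse complement GTAAACA. FOXK1 is known as a repressor that recruits SIN3 complexes, among other roles at autophagy and glucose metabolism genes. Binding sites inside genes can lie at inner transcription starts, where shorter transcripts of a gene begin, or in introns, where enhancers are common. Exons and introns were not used here, so a position is given only by its distance from annotated starts and ends.

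Inner starts were examined with RefSeq windows on GRCh38.p14 that reach from 250 bases before to 50 bases after a listed start. The sequences shown are the first 250 bases of such windows, 5′ to 3′ on the gene's strand, at 7 deep shared peaks that cover 1 inner start of their host. Those of CALD1, ARID5B, TNIP1, TENM3 and TBC1D1 were picked because they hold the forkhead core, that of SMAD3 because it holds an AP-1 site (TGACTCA or TGAGTCA), and that of ELF2 because it lies under the highest peak over an inner start and holds neither. They were picked after their letters were seen. Capitals mark the forkhead core and the AP-1 site.
CALD1, chr7:134779384-134779633, plus strand: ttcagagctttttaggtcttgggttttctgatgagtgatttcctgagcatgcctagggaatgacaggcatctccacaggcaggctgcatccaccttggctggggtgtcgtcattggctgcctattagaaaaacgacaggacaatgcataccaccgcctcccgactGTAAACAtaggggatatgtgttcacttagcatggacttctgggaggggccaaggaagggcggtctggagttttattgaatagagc
ARID5B, chr10:62049107-62049356, plus strand: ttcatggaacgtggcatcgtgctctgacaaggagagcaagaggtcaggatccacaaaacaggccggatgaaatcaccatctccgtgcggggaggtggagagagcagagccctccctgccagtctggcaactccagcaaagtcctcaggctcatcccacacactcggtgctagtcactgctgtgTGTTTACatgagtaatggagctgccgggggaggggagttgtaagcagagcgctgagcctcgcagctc
TNIP1, chr5:151081035-151081284, minus strand: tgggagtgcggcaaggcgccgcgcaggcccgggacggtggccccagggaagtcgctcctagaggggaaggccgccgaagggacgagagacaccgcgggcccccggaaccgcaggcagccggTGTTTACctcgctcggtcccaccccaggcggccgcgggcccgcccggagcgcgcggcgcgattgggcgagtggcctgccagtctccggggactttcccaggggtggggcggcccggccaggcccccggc
TENM3, chr4:182448766-182449015, plus strand: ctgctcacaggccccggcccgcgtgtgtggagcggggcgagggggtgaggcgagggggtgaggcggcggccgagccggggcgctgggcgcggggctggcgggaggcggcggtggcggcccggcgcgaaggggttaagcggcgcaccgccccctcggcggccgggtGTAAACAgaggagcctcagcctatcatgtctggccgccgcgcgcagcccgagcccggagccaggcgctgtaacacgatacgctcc
TBC1D1, chr4:38119704-38119953, plus strand: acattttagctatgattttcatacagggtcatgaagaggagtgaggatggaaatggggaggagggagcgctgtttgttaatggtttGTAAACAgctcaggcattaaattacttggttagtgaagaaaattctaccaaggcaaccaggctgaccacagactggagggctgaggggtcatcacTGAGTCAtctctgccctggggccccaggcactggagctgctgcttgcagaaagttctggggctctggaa
SMAD3, chr15:67125492-67125741, plus strand: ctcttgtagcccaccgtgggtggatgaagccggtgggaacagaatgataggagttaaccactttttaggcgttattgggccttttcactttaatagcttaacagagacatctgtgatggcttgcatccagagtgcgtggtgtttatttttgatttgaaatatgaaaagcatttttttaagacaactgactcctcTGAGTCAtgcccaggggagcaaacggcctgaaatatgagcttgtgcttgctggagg
ELF2, chr4:139084225-139084474, minus strand: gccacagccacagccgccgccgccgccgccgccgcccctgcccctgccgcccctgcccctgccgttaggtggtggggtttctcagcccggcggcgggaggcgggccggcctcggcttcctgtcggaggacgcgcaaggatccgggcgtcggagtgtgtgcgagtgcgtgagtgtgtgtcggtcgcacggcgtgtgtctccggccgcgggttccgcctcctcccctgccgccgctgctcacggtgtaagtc

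The peaks over these starts ranged widely in height. CALD1, an actin-binding regulator of contraction, had heights of 67 in the untreated list and 55 in the TGF-β1 list, at a start 68.1 kb from the outermost start of the gene. ARID5B, a DNA-binding cofactor of metabolism and development, had 64 and 61, and TNIP1, an inhibitor of NF-κB signalling, had 62 and 59. TENM3, a teneurin of cell adhesion, had 60 and 42 at a start 1001.4 kb inside the gene. TBC1D1, a Rab GTPase-activating protein of glucose uptake, had 45 and 30, and its window held both the forkhead core and an AP-1 site. SMAD3, the signal transducer of TGF-β receptors, had 32 and 20. ELF2, an ETS transcription factor, had 113 and 115, and its 250 bases held 34 CG dinucleotides against 5 in the CALD1 stretch.

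Inner starts accounted for a small share of the deep shared peaks. Of the 1164 peaks whose host had a listed start, 80 overlapped a start window of the host, or 6.87% (exact binomial 95% interval 5.49 to 8.48). A start of another gene, in each case of a long noncoding RNA, was overlapped by 36 of 1371 peaks, or 2.63% (1.85 to 3.62). Among deep peaks of any height, 0.32% (0.29 to 0.35) of the control list overlapped a start of another gene. In the TGF-β1 list it was 0.25% (0.23 to 0.27). Deep peaks of any height were not matched to the deep shared peaks in height or width. No such share was computed for deep peaks of height 20 or more, so nothing is read from the difference. In all, 100 deep shared peaks overlapped a start of either kind. The start table is not complete, and start windows on chromosome 8 were not used here, so these counts are lower limits. By height, the share at a start of the host was 5.56% (3.72 to 7.93) for control heights of 20 to 29. It was 5.85% (3.92 to 8.34) for 30 to 49, and 13.26% (8.68 to 19.08) for 50 or more. Intervals here and below cover counting error only.

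Lower peaks inside genes met inner starts less often. Of control peaks of height 3 to 4 that lay as deep, 0.20% (0.15 to 0.25) overlapped a start of the host, of those of height 5 to 9 0.54% (0.49 to 0.59), and of those of height 10 to 19 3.98% (3.58 to 4.41). The shares were 0.17%, 0.51% and 4.16% among TGF-β1 peaks of the same classes. At heights of 20 or more, shared or not, the shares were 6.0% (5.01 to 7.11) and 5.98% (4.87 to 7.26), intervals that overlap that of the deep shared peaks. Higher peaks were also wider, with median widths of 317 bp at heights 3 to 4 and 855 bp at heights of 20 or more in the control list, and a wider peak overlaps a window more easily. With the midpoint within 500 bp of a start as the measure, the control shares were 0.28% at heights 3 to 4, 3.68% at heights 10 to 19 and 5.58% for the deep shared peaks.

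**Figure D1:**
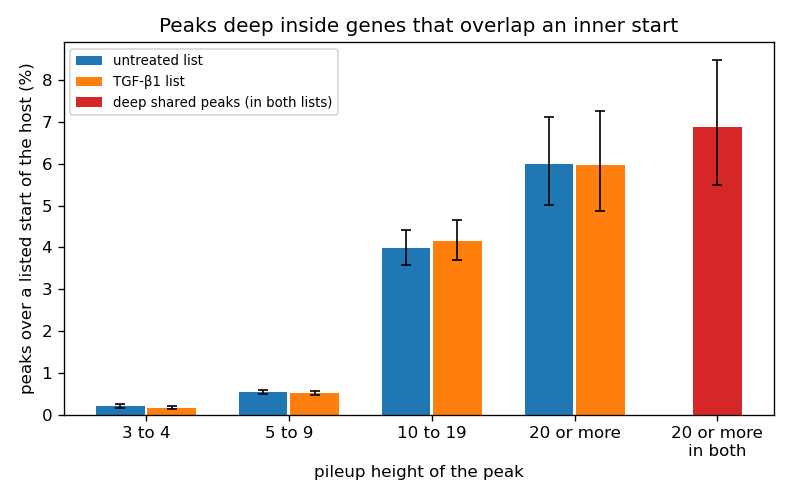
Share of deep peaks (%) that overlap a listed start of their host, by pileup height of the peak, for the untreated list, the TGF-β1 list and the deep shared peaks; error bars are exact binomial 95% intervals. The share stays under 0.6% up to height 9, is near 4% at heights 10 to 19 and reaches 6.87% for the deep shared peaks.

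Besides ELF2, peaks over an inner start lay in genes of varied function. Some of them are named here, and these are not the highest in order. WDR81, a protein of endolysosomal traffic, had heights of 105 and 82, and SLC25A26, the mitochondrial carrier of S-adenosylmethionine, had 92 and 104. CHIC2 had 91 and 75, and WDR45, a phosphoinositide-binding autophagy protein, had 90 and 51. TXNRD1, the cytosolic thioredoxin reductase, had 80 and 57 under a control peak of 4284 bp, the widest of all deep shared peaks. CDC25C, the phosphatase that activates CDK1 at mitosis, had 65 and 57, and KLF7, a Krüppel-like factor, had 59 and 51. HAVCR1, which encodes the kidney injury marker KIM-1, had 42 and 36, and PAX6, a developmental transcription factor, had 37 and 30. The control heights of all 80 peaks over a start of their host ran from 20 to 113, with a median of 35. The median was 31 for the 1084 peaks whose host had listed starts but which covered none of them. Median control widths were 1350 and 882 bp.

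The forkhead core was more common in the start windows under these peaks than in other inner start windows. It stood in 15 of 102 windows overlapped by a deep shared peak, 14.7% (8.47 to 23.1), against 120 of 3226 inner windows without one, 3.72% (3.09 to 4.43), and 3.42% of all 34961 start windows used. The window of TCP11L2 among the 102 lay within 5 kb of a gene end, and without it the share was 14 of 101, 13.9% (7.79 to 22.2). Several windows can lie in 1 gene, and counted over peaks the share was 15 of 80, 18.75% (10.9 to 29.03). Here a peak counted when any of its windows held the core, which raises the share. It is therefore not comparable with the shares of windows. The 15 genes were ARID5B, ATOSA, CALD1, MECOM, PTBP3, SH3PXD2A, TBC1D1, TBC1D14, TCF4, TCP11L2, TENM3, TFDP2, TNIP1, WDR45 and ZSCAN18. The AP-1 letters TGACTCA or TGAGTCA were found in 8 of the 102 windows, 7.84% (3.45 to 14.9), against 6.32% (5.51 to 7.22) of the other inner windows and 4.92% of all windows. The CRE letters TGACGTCA were found in 0 of 102 (0% to 3.55%), against 1.27% (0.91 to 1.72) of the other inner windows and 1.85% of all windows. GGAATG or CATTCC, the TEAD core, was found in 13.7%, against 14.9% of the other inner windows and 14.0% of all windows. All letters were searched on both strands, and a match is a description of the sequence and not evidence of a bound site.

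Over all inner start windows, the forkhead core was at its highest share under the highest peaks of either list. Among inner start windows without a control peak it stood in 3.89% (3.12 to 4.78), under peaks of height 3 to 9 in 2.94% (1.69 to 4.73), under heights of 10 to 19 in 3.65% (2.06 to 5.95) and under heights of 20 or more in 10.6% (6.31 to 16.5). The TGF-β1 list gave 3.68%, 3.49%, 4.62% and 11.1%. CG content differed too, with a median of 19 CG dinucleotides in the windows under deep shared peaks against 7 in the other inner windows. Among windows with 10 or more CG dinucleotides, the core stood in 17 of 785 (1.27% to 3.44%) without a control peak and in 13 of 116, or 11.2% (6.10 to 18.4), under control heights of 20 or more. In windows with fewer, the values were 4.84% (3.78 to 6.08) and 9.09% (2.53 to 21.7), intervals that overlap, with 7.75% (3.78 to 13.8) at heights of 10 to 19. The TGF-β1 list gave 2.16% without a peak and 13.1% (6.72 to 22.2) at 20 or more in windows with 10 or more CG dinucleotides. In its windows with fewer, the core was not at its highest share under the highest peaks, with 10.6% (5.4 to 18.1) at heights of 10 to 19 and 7.14% (1.5 to 19.5) at 20 or more. Sequence outside the start windows was not used here, so motifs under the other deep shared peaks were not examined.

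**Figure D2:**
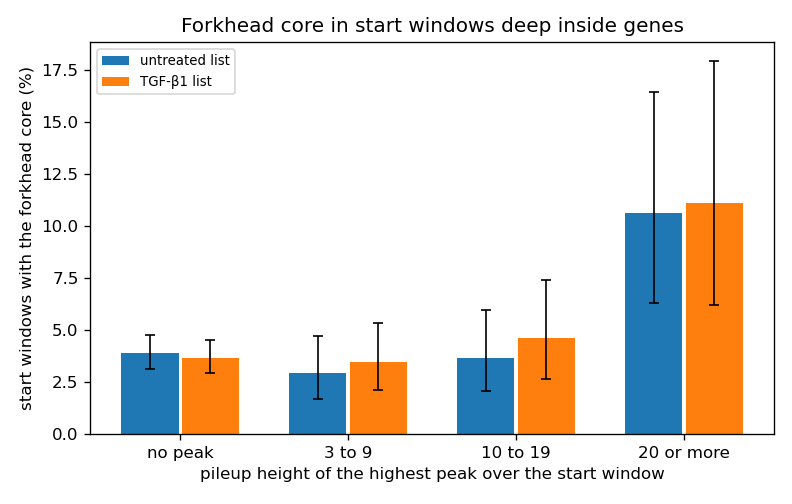
Share of start windows deep inside their own gene (%) that hold the forkhead core on either strand, by the pileup height of the highest peak over the window, for the untreated and the TGF-β1 list; error bars are exact binomial 95% intervals. Shares lie between 2.94% and 4.62% up to height 19 and reach 10.6% and 11.1% at heights of 20 or more.

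The highest deep shared peaks were mostly not at listed starts. FHDC1, a formin homology protein, had the highest control value, with heights of 159 and 98 at chr4:152956170-152957551, 45.5 kb from its outermost start. DDAH1, which breaks down asymmetric dimethylarginine, had 131 and 126. FOXK1 itself equalled that control height, with 131 and 92 at chr7:4744581-4746923, 63.5 kb from the start of its gene and 25.7 kb from its nearest annotated end. A second deep shared peak in FOXK1, 42.9 kb from its start, had 33 and 27. SQSTM1, the autophagy receptor p62, had 130 and 138 at chr5:179818375-179819827, 12.7 kb from its start, and another peak of 67 and 49 at 15.3 kb. Neither SQSTM1 peak covered the inner start listed for that gene.

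Others of the 20 highest belonged to several groups. Polycomb group genes PHC2 and CBX7 had heights of 119 and 105, and of 97 and 68. RALGPS1 and RALGDS, exchange factors of Ral GTPases, had 106 and 83, and 97 and 83, and RALGPS1 held another peak of 101 and 85. PIK3CB, a catalytic subunit of phosphoinositide 3-kinase, had 101 and 78, and IGF1R, the receptor of insulin-like growth factor 1, had 97 and 103 at a place 204.0 kb from its start. TCF7L2, a transcription factor of Wnt signalling, had 95 and 66, and MYLK, myosin light chain kinase, had 124 and 94. TK2, mitochondrial thymidine kinase, had 128 and 148, its TGF-β1 peak also covering another strong control peak. DHRS3, a retinaldehyde reductase, had 100 and 105, and NEURL1, a ubiquitin ligase, 129 and 97. MKLN1 with 126 and 87 and NOL4L with 98 and 69 complete the set. All of these had heights of 20 or more in both lists, as the rule requires.

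The TGF-β1 list had its highest value at a different gene. KCNMA1, the pore subunit of the BK potassium channel, had 90 without TGF-β1 and 153 with it, 105.9 kb from its start. Its TGF-β1 peak was 3345 bp wide and its control peak 1302 bp, with midpoints 1047 bp apart. The heights of this pair need not belong to the same place. EPHB2, an ephrin receptor, had 87 and 107, CUL3, a scaffold of ubiquitin ligases, 88 and 103, and PHLDB2, a protein of the cell cortex, 86 and 103.

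The lowest, median and highest heights were 20, 31 and 159 without TGF-β1 and 20, 28 and 153 with it, and 114 peaks had 50 or more in both. The control height was larger for 833 peaks, the TGF-β1 height for 454, and 84 were equal. The median ratio of TGF-β1 to control height was 0.91 here and also 0.91 over the 2818 other strong shared peaks. A TGF-β1 height at least 1.5 times the control height was found for 57 deep shared peaks, 4.16% (3.16 to 5.35), against 3.89% of all strong shared peaks. A control height at least 1.5 times the TGF-β1 height was found for 184, 13.4% (11.7 to 15.3), against 12.0% of all strong shared peaks. The rule used these heights, so nothing is read from these counts. When each ratio was divided by its median over all strong shared peaks, 92 peaks lay past the fold in each direction.

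**Figure D3:**
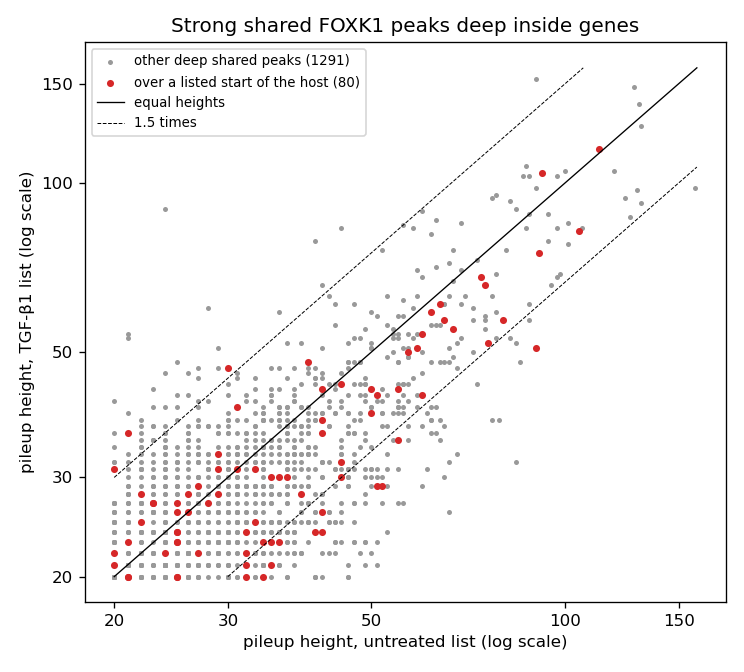
Pileup height of each of the 1371 deep shared peaks in the untreated list (x axis) and the TGF-β1 list (y axis), both on log scales; red points overlap a listed start of the host, the solid line marks equal heights and the dashed lines a 1.5-fold difference. Most points lie between the dashed lines, 57 lie on or above the upper and 184 on or below the lower.

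The 5 highest ratios were those of CLDN16, a claudin of the thick ascending limb, with 24 and 90, HOOK2 with 21 and 54, CAMTA1 with 21 and 53, REEP3 with 28 and 60, and PARN, a poly(A) ribonuclease, with 20 and 41. In CLDN16 and CAMTA1, a single TGF-β1 peak overlapped 2 strong control peaks, and the neighbouring control peaks had 84 and 48. The TGF-β1 heights of 90 and 53 thus belong to both control peaks of their gene. In all, 25 deep shared peaks shared their TGF-β1 peak with another strong control peak, 3 of them among the 57 and 1 among the 184. The 5 lowest ratios were those of EXOC6, an exocyst subunit, with 84 and 32, RIPOR3 with 66 and 26, IQCK with 51 and 21, TTLL5, a tubulin glutamylase, with 49 and 21, and SLC16A7, a monocarboxylate transporter, with 46 and 20. KAZN, also with 46 and 20, tied with SLC16A7.

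The rule requires paired peaks to overlap, so their positions are given as a description. The distance between midpoints had a median of 129 bp, 572 of 1371 pairs lay within 100 bp and 1256 within 500 bp. Control widths ran from 332 to 4284 bp with a median of 923 bp, and TGF-β1 widths from 322 to 4947 bp with a median of 916 bp. Other strong shared peaks had median widths of 998 and 1008 bp and median heights of 32 and 29.

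The height minimum cuts a continuous range of heights. Of 2464 control peaks of height 20 or more that were as deep, 1371 met the rule, 1065 overlapped only a lower TGF-β1 peak, whose median height was 15, and 28 overlapped none. Just inside, 12 peaks stood at 20 in both lists, among them those of NXPE3, ARHGAP31 and PLOD2. Just outside, 13 stood at 19 in both, among them those of LDAH, PRKCE and GPR39. A further 628 deep control peaks under 20 overlapped a TGF-β1 peak of 20 or more.

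Within their hosts, the deep shared peaks were spread almost evenly. The first 50% of the gene's length held 53.1% (50.2 to 56.0) of the 1164 peaks whose host had a known strand, against 50.5% (50.2 to 50.8) of deep control peaks of height 3 to 9 and 51.0% (50.7 to 51.3) of such TGF-β1 peaks. In steps of 20% of the gene's length from its start, the shares were 17.4%, 24.1%, 22.8%, 20.4% and 15.3%. The rule leaves out 5 kb at either end, and control peaks of height 3 to 9 gave 17.2% and 16.5% in the outer steps. The median distance from the outermost start was 59.0 kb. From the nearest end of any protein-coding gene the median was 31.2 kb, and 214 peaks lay more than 100 kb away. The farthest lay in MACROD2, 816.1 kb from any such end, with heights of 24 and 21.

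Ends of genes that are not protein-coding were near few of the peaks. Such an end lay within 1 kb of the midpoint for 78 of 1371 peaks, 5.69% (4.52 to 7.05), and 61 of these were ends of long noncoding RNA genes. Among deep peaks of any height the share was 2.94% (2.86 to 3.03) among control peaks and 2.87% (2.80 to 2.95) among TGF-β1 peaks. Among deep peaks of height 20 or more it was 5.15% (4.31 to 6.10) and 5.61% (4.61 to 6.74), close to that of the deep shared peaks. The highest of the 78 was the IGF1R peak of 97 and 103, with the end of LOC124903561 0.3 kb away. PDK2, a pyruvate dehydrogenase kinase, had 84 and 52, SLCO4A1, an organic anion transporter, 82 and 53, and KIFC3, a minus-end kinesin, 77 and 38. The KIFC3 peak covered the listed start of LOC388282, and that of KLF7 reached over the gene of the microRNA MIR7845.

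Hosts were long genes, and some held several peaks. The 1371 peaks lay in 1049 host genes, 7.42% of the 14144 protein-coding genes that had any sequence more than 5 kb from all gene ends, here called genes with room. Hosts had a median length of 125 kb, and other genes with room 39.3 kb. The share of genes that were hosts was 2.4% up to 50 kb, 14.2% from 100 to 200 kb and 28.0% over 500 kb. Per 10 Mb of sequence with room the order was the other way round, with 17.6 peaks up to 50 kb, 15.0 from 100 to 200 kb and 6.25 over 500 kb. A strong shared peak within 1 kb of a gene end was found for 11.5% (9.66 to 13.6) of hosts and 7.90% (7.45 to 8.38) of other genes with room. The share was higher for hosts in each of 5 length classes. The intervals were apart up to 50 kb, at 16.5% (11.5 to 22.6) and 8.12% (7.52 to 8.75), and overlapped in the other classes, with 10.1% (6.82 to 14.3) and 7.75% (6.51 to 9.13) from 100 to 200 kb.

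There were 213 hosts with 2 or more peaks, 36 of them with 4 or more, and 287 peaks had another within 25 kb. PTPN14, a tyrosine phosphatase that restrains YAP, held 7 peaks between 25.8 and 147.0 kb from its start, with control heights from 24 to 53. The overlapping genes SCHIP1 and IQCJ-SCHIP1 shared 7, with control heights from 21 to 68, and the peak of 60 and 54 covered inner starts of SCHIP1. EGFR, the epidermal growth factor receptor, held 6 between 46.6 and 113.9 kb from its start, the highest with 45 and 34, and its control peaks of 21 and 22 lay under 1 TGF-β1 peak. FNDC3B, RIN2 and SPTBN1, the last a spectrin of the membrane skeleton, held 6 each, and SPTBN1 had 62 and 81 at 157.8 kb and 63 and 86 at 173.7 kb from its start.

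Chromosomes differed in the density of deep shared peaks. Chromosome 20 held 75 in 23 Mb of sequence with room, or 32.7 per 10 Mb, against 12.7 over all chromosomes. Chromosome 3 had 19 and chromosome 1 had 17.9, while chromosome X had 3.19, chromosome 13 had 4.98 and chromosome 11 had 6.14. Deep peaks of any height were far more even in the control list, from 128 per Mb on chromosome 8 to 157 on chromosome 22, with 130 on chromosome 20 and 134 on X. In the TGF-β1 list they ran from 125 on X to 189 on chromosome 4, with 161 on chromosome 20. Of the deep shared peaks, 5.47% lay on chromosome 20 and 1.02% on X. Of the 2818 other strong shared peaks, 160 lay on chromosome 20 and 45 on X. The densities on chromosome 20 and X are thus not called particular to the deep shared peaks.

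**Figure D4:**
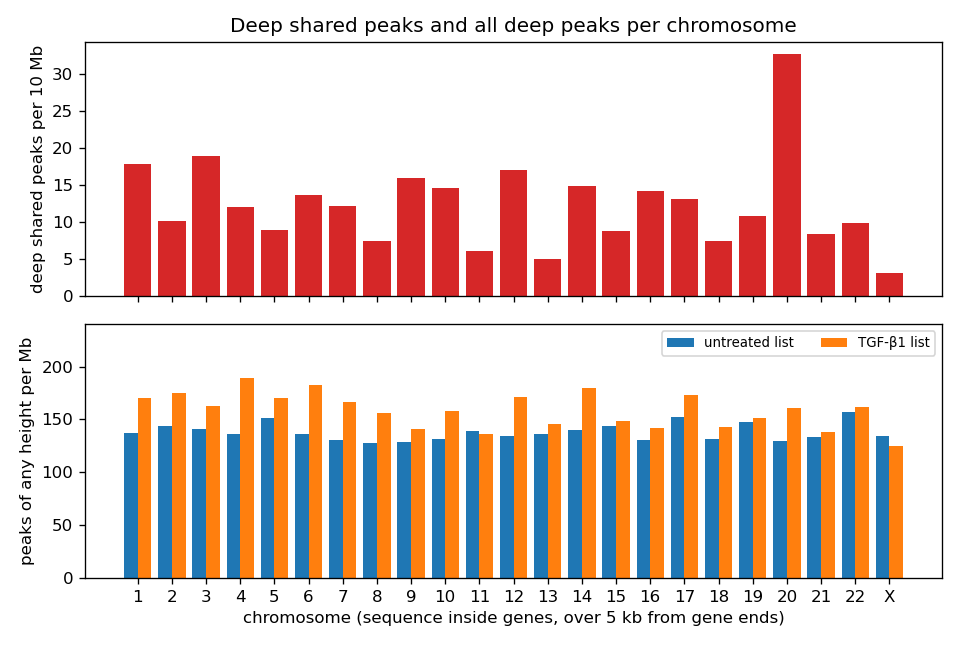
Deep shared peaks per 10 Mb (upper panel) and peaks of any height per Mb in the untreated and TGF-β1 lists (lower panel), by chromosome, over sequence inside protein-coding genes and more than 5 kb from gene ends. Chromosome 20 stands at 32.7 deep shared peaks per 10 Mb and X at 3.19, while the lower panel varies much less.

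Lists of pathway genes, kidney genes, markers of other cells and long neuronal genes were set beside the 7.42% of genes with room that were hosts. Of 362 listed genes with room, 74 held a deep shared peak. Listed genes are often longer than other genes. The number of peaks per 10 Mb of sequence with room is therefore given too, against 12.7 over all genes. Over all genes that number fell with gene length, from 17.6 up to 50 kb and 16.4 from 50 to 100 kb to 6.25 over 500 kb. The value of 12.7 is thus not matched to the length of the genes in a list.

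The Hippo and AP-1 list, genes of the YAP and TAZ pathway and of the FOS and JUN families, had 9 hosts of 22 genes with room and 70.0 peaks per 10 Mb. WWTR1, which encodes TAZ, held 5 peaks with control heights from 23 to 41 and TGF-β1 heights from 20 to 44, and 1 of them covered an inner start. ATF3, a stress-induced bZIP factor, had 37 and 40, and 35 and 41. NF2, the pathway's upstream tumour suppressor merlin, had 36 and 26, and AMOTL2, an angiomotin, 35 and 22. With heights of 30 or more in both lists, 2 of the 9 were left.

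Focal adhesion and actin genes had 12 hosts of 31 and 44.0 peaks per 10 Mb. CALD1, at 67 and 55, was the highest. PALLD, the actin-bundling protein palladin, held 4 peaks, of 50 and 31, 30 and 31, 28 and 24, and 20 and 31. The control peaks of 30 and 20 lay under 1 TGF-β1 peak of 4947 bp, so their TGF-β1 height is the same value. DIAPH1, a formin, had 48 and 38, and ITGB5, the integrin β5 subunit, held 4 with control heights from 25 to 45. At heights of 30 or more, 10 of the 12 were left.

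EGFR and MAPK genes had 4 hosts of 28 and 54.2 peaks per 10 Mb, of which EGFR held 6 of 10 peaks. FGFR2, a fibroblast growth factor receptor, had 65 and 30, ETS1, a transcription factor, 31 and 46, and SPRED2, an inhibitor of the cascade, 21 and 28. Insulin and mTOR genes had 6 hosts of 28 and 28.9 peaks per 10 Mb. PIK3CB and IGF1R, named above, held 3 each, INPP4B, a phosphoinositide phosphatase, had 52 and 37 at its highest, and IRS1, an insulin receptor substrate, 36 and 38.

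TGF-β signalling genes had 7 hosts of 27 and 34.5 peaks per 10 Mb. BMPR1B, a bone morphogenetic protein receptor, had 61 and 39. TGIF1, a repressor of SMAD-dependent transcription, had 34 and 31 and, over inner starts, 29 and 31. SMAD3 had 32 and 20 over the inner start shown above and 29 and 23 at another place. SMAD6, an inhibitory SMAD, had 26 and 26, and 21 and 36. With heights of 30 or more in both lists 2 of the 7 were left. Matrix and fibrosis genes had 5 hosts of 28 and 34.6 peaks per 10 Mb. COL5A1, a fibrillar collagen chain, had 59 and 54, COL4A2, a basement membrane collagen chain, 49 and 23 at its highest, TGFBI, a TGF-β-induced matrix protein, 47 and 33, and LAMA3, a laminin chain, 28 and 20.

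The metabolic and stress lists held 3 to 6 peaks each. Glycolysis genes had 3 hosts of 20 and 36 peaks per 10 Mb, which were HK2, hexokinase 2, with 40 and 23, SLC2A1, the glucose transporter GLUT1, with 38 and 41, and PFKFB3, which makes the activator of phosphofructokinase, with 25 and 25. The hypoxia list had 1 host of 14 and 39.8 peaks per 10 Mb, all of them in PLOD2, a collagen lysyl hydroxylase, whose 3 peaks had 39 and 37, 20 and 26, and 20 and 20. Autophagy and lysosome genes had 4 hosts of 31 and 29.3 peaks per 10 Mb, with SQSTM1 the highest, ULK1, the kinase that starts autophagy, at 29 and 24, MITF, a lysosomal gene regulator, at 24 and 23, and ATG2B, a lipid transfer protein, at 22 and 22. Forkhead factors and FOXK partners had 5 hosts of 25 and 20.4 peaks per 10 Mb. Beside FOXK1, FOXJ3 had 64 and 35, FOXN3 38 and 29, and OGT, the O-GlcNAc transferase, 23 and 25, and, below these in height, FOXK2 had 21 and 23.

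The Wnt, kidney lineage, proximal tubule and long neuronal lists ranged from 2.75 to 18.4 peaks per 10 Mb. Wnt genes had 2 hosts of 23 and 18.4 peaks per 10 Mb, TCF7L2 and the receptor gene ROR1, the latter with 26 and 24. Kidney lineage factors had 3 of 18 and 14.0, with ESRRG, an orphan nuclear receptor, at 36 and 34, TFAP2A at 36 and 40 and MECOM at 29 and 21. Proximal tubule genes had 2 of 20 and 11.6, which were the amino acid transporter gene SLC3A1 with 55 and 53 and CUBN, the endocytic receptor cubilin, with 29 and 31. Long neuronal genes, whose median length was 1252.6 kb, had 7 of 32 and 2.75 peaks per 10 Mb. All genes with room over 500 kb had 6.25. NLGN1 had 39 and 22, CTNNA3 37 and 32, CTNNA2 33 and 32 and LSAMP 32 and 22. Markers of other kidney and blood cells had 4 of 19 and 36.4 peaks per 10 Mb. These were SYNPO, the podocyte actin protein synaptopodin, with 94 and 88, PTPRC, the leukocyte phosphatase CD45, with 52 and 39, and the endothelial genes CDH5 with 34 and 29 and PECAM1 with 25 and 20. That density was above those of the TGF-β signalling, matrix and insulin lists, and no list is called particular.

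**Figure D5:**
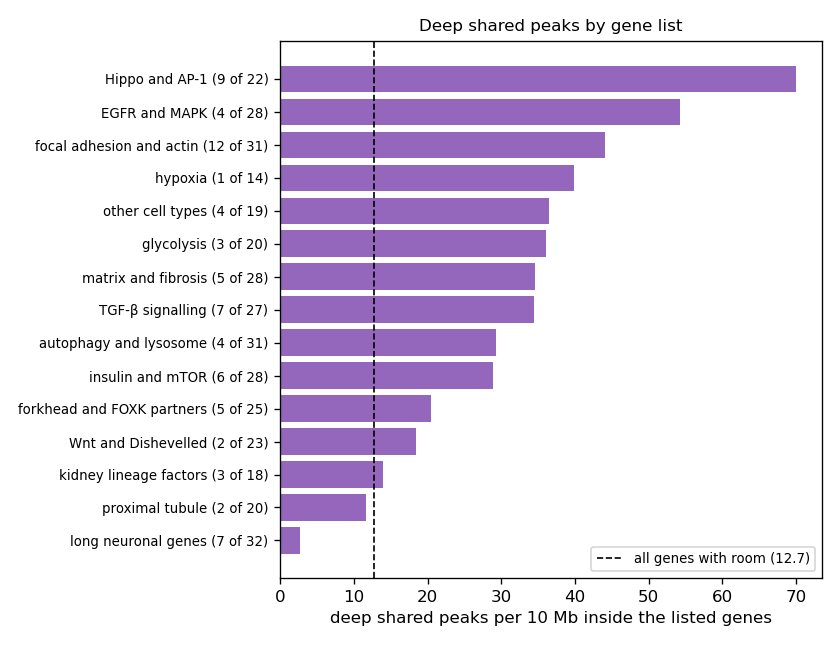
Deep shared peaks per 10 Mb of sequence with room in the genes of each list, with the number of host genes of all genes with room in brackets. The dashed line marks 12.7, the value over all genes, which is not matched for gene length. The Hippo and AP-1 list stands at 70.0, markers of other cell types at 36.4 and long neuronal genes at 2.75.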

How the data were processed

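FOXK1 peaks of HK-2 cells with and without TGF-β1 were analysed from 1 deposited peak list per condition. The authors' signal for each peak is its pileup height, a whole number, identified as such from the values. MACS2 2.1.1.20160309, hg38 as the build, and bcl2fastq 2.17 are named per the submitters' processing notes. The aligner, filters, peak threshold and depth are not given in the sources used here. Starts were read as counting from 0, and printed starts are 1-based. Genes came from RefSeq on GRCh38.p14, which shares its chromosome coordinates with hg38, with 19970 protein-coding genes on chromosomes 1 to 22 and X.

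Where several TGF-β1 peaks overlapped a control peak, the highest was its partner. Strand and starts came from RefSeq start windows, listed for 11422 of the 14144 genes with room. Shares have exact binomial 95% intervals. The rule was tested on simulated peaks. Python 3.11.15, numpy 2.4.6, pandas 2.3.3, scipy 1.17.1 and matplotlib 3.10.9 were used.

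The peaks, the 15 gene lists, of 422 genes that all matched by symbol, and the naming rule were chosen with earlier results of these data known. The rule names the 20 highest control peaks, the 5 next highest TGF-β1 peaks, extremes of ratio, distance and number, peaks near noncoding genes and up to 4 genes per list. Some genes that the rule names are not reported here. Other genes, such as those at inner starts, were named after their values were seen. Alternatives changed the distance, the height, the overlap, the fold, the scaling and the windows.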

Additional observations from a re-analysis of the deposited data

How the results depend on the processing

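The number of deep shared peaks depended mainly on the height minimum. At heights of 30 or more in both lists, 473 peaks were left in 430 hosts, and 37 of the 74 listed genes still held one. Distances of 2 and 10 kb from gene ends gave 1570 and 1187 peaks, a 50% overlap gave 1259, and starts counted from 1 gave 1371. Ends of genes that are not protein-coding were near 49 peaks at 500 bp and 124 at 2 kb. A fold of 2 left 33 peaks past it, 5 higher in the TGF-β1 list and 28 higher in the control list. Division by the median ratio, which by construction centres the values, gave 184 in all, 92 in each direction. Of 30 single-list counts recomputed, 17 stayed within 1.5 times and 13 did not, most of them at heights of 30 or more. Counted over peaks, the forkhead core share was 18.75%, and over windows more than 5 kb from gene ends 13.9%, alternatives chosen after seeing the data, as were the midpoint measure of starts (5.58%) and the position without peaks at listed starts (52.5% in the first 50% of the gene). No paired analysis was possible because each condition had 1 FOXK1 library, and no replicate could be left out. Unknown depth limits all comparisons of height between the lists.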
